A study of Mus musculus with 4 samples.

Results

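Chemokine receptors guide T cells and monocytes through lymphoid organs and inflamed tissue. The 9 receptor genes described here were taken by name from a table of 16230 genes. Ccr4, Ccr6, Ccr7, Ccr9, Cxcr3 and Cxcr6 were treated as the 6 T helper receptors, and Ccr2, Cxcr4 and Cx3cr1 as the 3 receptors shared with monocytes. Transcripts were measured in CD3+CD4+ cells sorted from the spleens of Rag-/- mice, which have no T or B cells of their own, 8 weeks after sorted naive CD4 T cells had been injected and had caused colitis. In the control group (2 libraries) the donor cells were ERafl/fl, with loxP-flanked alleles of Esr1, the gene of estrogen receptor α. In the other group (2 libraries) they were CD4creERafl/fl, with the same flanked alleles and a Cre recombinase expressed from Cd4, which the labels call ERα deficient. These are named Cre-labelled here, after their label. Both groups therefore share the flanked alleles, the Rag-/- host and the colitis. The labels give neither an age nor whether each library is a separate mouse, so p-values cover only a spread between libraries that may be technical.

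Each of these receptors is a G protein-coupled receptor that signals mainly through Gi proteins when its chemokine binds, and cells then move toward the source. CXCR3 is the receptor of Th1 cells for the interferon-induced ligands CXCL9, CXCL10 and CXCL11, and CXCR6 binds CXCL16 on activated T cells. CCR4 is typical of Th2 and regulatory T cells, CCR6 of Th17 cells, CCR7 of naive and central memory cells, and CCR9 of cells that home to the small intestine. CCR2 brings inflammatory monocytes out of the bone marrow and is also found on effector T cells. CX3CR1 marks monocytes, many macrophages and some cytotoxic lymphocytes, and CXCR4, the receptor for CXCL12, is present on most leukocytes.

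The libraries were shallow. An estimated 697000 fragments stood behind control 1, 664000 behind control 2, 500000 behind Cre-labelled 1 and 559000 behind Cre-labelled 2. Levels are given as FPKM, that is, fragments relative to the length of the transcript and the depth of the library. On a transcript of 2000 bases a single fragment gave between 0.72 FPKM (control 1) and 1.0 FPKM (Cre-labelled 1). Esr1 itself had 0.23 FPKM in control 1 and 1.96 in Cre-labelled 2 and was listed at 0 in the remaining libraries, so it does not check the labels. Cd4, a sort marker, stood at 155 and 128 FPKM in controls against 52.6 and 52.4 in the Cre-labelled libraries. Of the chains of CD3, the other sort marker, Cd3e had 65.5 and 60.2 FPKM in controls against 9.81 and 10.1. Cd3g had 202 and 187 against 25.9 and 26.8, and Cd3d had 177 and 146 against 124 and 70.9. All 18 genes restricted to T cells had lower values in both Cre-labelled libraries than in both controls (25.7% of all 12896 tested genes did), with a summed level of 980 to 1309 FPKM in controls and 242 to 269 in the other group. Of these genes, Ctla4 was listed at 0 in both Cre-labelled libraries. The 19 macrophage and monocyte markers in the table summed to 105 and 527 FPKM in controls 1 and 2 and to 2738 and 3216 in the Cre-labelled libraries. 6 of them (Adgre1, Cd14, Fcgr1, Mertk, Marco and Clec4a1) were listed at 0 in control 1. In bulk samples, fewer cells of a type and less RNA per cell cannot be told apart. The part of these marker differences in the receptor differences below was not tested, apart from a scaling of the libraries to T cell genes.

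The Th1 receptor Cxcr3 and the effector receptor Cxcr6 had the largest lower values among the T helper receptors, and Cx3cr1 the largest higher value among all 9. None of the receptors passed the test. In limma on log2(FPKM + 1), 0 of 9 receptors had an adjusted p under 0.05 (Benjamini-Hochberg over all 12896 genes tested), against a background of 0.0155% of genes higher and 0.0388% lower. At an unadjusted p under 0.05 there were 2 lower receptors (Cxcr3 and Cxcr6; background 6.8%) and 1 higher receptor (Cx3cr1; background 9.1%). With voom weights on estimated fragments, an alternative chosen after the data were seen, 0 of the 6 receptors that could be tested passed, against 2.39% of 7185 genes higher and 0.835% lower. Groups did not overlap for 4 of the 6 T helper receptors, all 4 lower in the Cre-labelled libraries, where 25.7% of all tested genes were lower without overlap. They did not overlap for 2 of the 3 receptors shared with monocytes, both higher, where the background was 23.2%. The median log2 fold change, Cre-labelled minus control, was -0.75 for the T helper receptors, 0.57 for the receptors shared with monocytes and -0.07 for all tested genes.

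**Figure D1:**
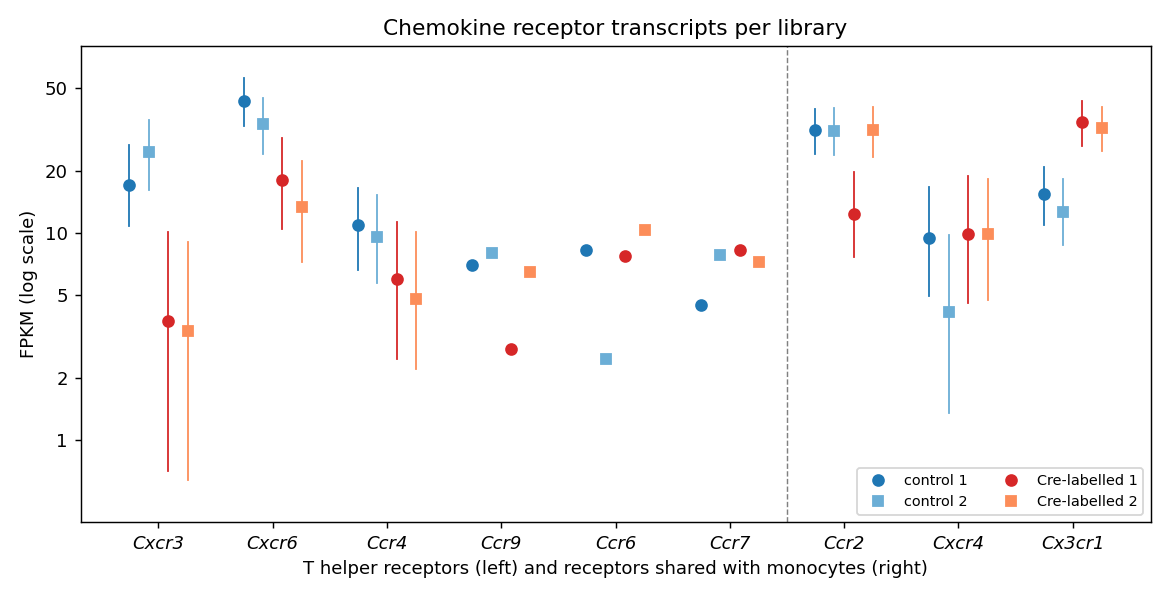
FPKM (log axis) of the 9 chemokine receptors in each of the 4 libraries, with T helper receptors left and receptors shared with monocytes right of the dashed line. Bars are 95% exact Poisson intervals of the estimated fragments, drawn for the 6 genes with 1 annotated transcript. Cxcr3, Cxcr6, Ccr4 and Ccr9 were lower and Cxcr4 and Cx3cr1 higher in both Cre-labelled libraries than in both controls.

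The 250 bases before 1 annotated transcript start of each of Cxcr3, Cxcr6, Ccr4 and Cx3cr1 are shown because these 4 receptors had the smallest unadjusted p-values among the 9. Sequences are from RefSeq on GRCm38.p6, 5′ to 3′ on the strand of the gene. They cover chrX:101734148-101734397 (minus strand) for Cxcr3, chr9:123806227-123806476 (plus strand) for Cxcr6, chr9:114496545-114496794 (minus strand) for Ccr4 and chr9:120068297-120068546 (minus strand) for Cx3cr1. The window of Ccr4 lies inside the span annotated for the gene (114490316 to 114505476), which reaches to a start farther upstream that was not searched. Capitals mark matches, on either strand, to 5 motifs that were searched.
Cxcr3: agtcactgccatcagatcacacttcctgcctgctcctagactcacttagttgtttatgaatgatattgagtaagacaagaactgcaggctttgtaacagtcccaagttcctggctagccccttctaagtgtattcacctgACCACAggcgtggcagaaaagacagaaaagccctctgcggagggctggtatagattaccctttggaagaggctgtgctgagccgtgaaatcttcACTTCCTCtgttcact
Cxcr6: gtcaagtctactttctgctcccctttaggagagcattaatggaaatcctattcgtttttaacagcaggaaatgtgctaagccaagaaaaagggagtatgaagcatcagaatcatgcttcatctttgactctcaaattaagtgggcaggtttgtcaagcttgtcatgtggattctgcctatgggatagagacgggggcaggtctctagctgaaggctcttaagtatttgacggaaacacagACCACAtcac
Ccr4: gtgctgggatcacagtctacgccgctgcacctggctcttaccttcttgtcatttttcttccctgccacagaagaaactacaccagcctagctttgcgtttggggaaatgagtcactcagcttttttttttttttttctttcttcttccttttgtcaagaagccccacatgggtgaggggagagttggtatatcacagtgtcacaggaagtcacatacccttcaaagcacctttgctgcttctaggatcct
Cx3cr1: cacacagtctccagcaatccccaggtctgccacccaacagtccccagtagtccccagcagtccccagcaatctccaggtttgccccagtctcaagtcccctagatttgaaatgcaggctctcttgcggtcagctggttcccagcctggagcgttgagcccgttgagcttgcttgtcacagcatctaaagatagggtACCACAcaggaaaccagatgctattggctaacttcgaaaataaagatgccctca

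The RUNX motif TGTGGT was found on the opposite strand in Cxcr3, Cxcr6 and Cx3cr1, that is, in receptors that were lower and in one that was higher. It is common, with a match in 14.2% of 27025 promoter windows of this length. The PU.1 motif GAGGAAGT was found before Cxcr3 (2.44% of all windows), and Ccr4 held none of the 5 motifs. The estrogen response element, an inverted repeat of GGTCA with any bases at NNN between its arms, which occurs in 0.0629% of windows, and the T-box motif AGGTGTGA (1.14%) were in none of the 8 receptor windows in the reference table. The estrogen receptor half-site AGGTCA, which overlaps the full element, was found before Ccr6 alone (13.8% of windows). A match is a description of these letters and not a bound site, and Ccr7 had no window to search.

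Cxcr3, the receptor that takes Th1 cells to interferon-rich sites, had 17.0 FPKM in control 1, 24.5 in control 2, 3.74 in Cre-labelled 1 and 3.36 in Cre-labelled 2. Both controls were far above both other libraries. The group means were 20.7 ± 5.25 and 3.55 ± 0.27 FPKM (SD, n = 2), a log2 fold change of -2.24 ± 0.40 (SE, adjusted p = 0.129 in limma). The low values rest on about 3.2 fragments in each Cre-labelled library, at the limit of 3 fragments that a count of 0 allows, against 20.5 and 28.1 in controls. Their 95% exact Poisson intervals, which cover counting error only, reached 10.1 and 9.07 FPKM, below the lower bounds of 10.8 and 16.2 in controls. Fragments were rounded to whole numbers for these intervals, from 20.5 to 21 in control 1. The narrow gap between control 1 and Cre-labelled 1 is therefore uncertain. Pooled over a group and corrected for depth, the Cre-labelled to control ratio of fragments was 0.157 (95% exact interval 0.0551 to 0.368, counting error only). The log2 fold change was -2.48 without control 1 and -1.99 without control 2.

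Cxcr6, the receptor of activated T cells for CXCL16, had the highest level of the 9 receptors in both controls, at 43.3 and 33.5 FPKM. It had 18.0 and 13.3 FPKM in the Cre-labelled libraries, and the groups did not overlap. Means were 38.4 ± 6.95 and 15.6 ± 3.31 FPKM (SD, n = 2), with a log2 fold change of -1.25 ± 0.35 (SE, adjusted p = 0.202 in limma). These values rest on 57.2 and 42.2 estimated fragments in controls and on 17.0 and 14.1 in the other group. Their pooled ratio was 0.403, with a counting interval of 0.26 to 0.608.

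Ccr4, the receptor for CCL17 and CCL22, had 10.9 and 9.54 FPKM in controls against 5.98 and 4.79 in the Cre-labelled libraries. The groups did not overlap, but the counting intervals did, from 5.72 FPKM upward in control 2 and up to 11.2 in Cre-labelled 1. Its log2 fold change was -0.82 ± 0.40 (SE, adjusted p = 0.39 in limma). Its pooled fragment ratio was 0.528, with a counting interval of 0.275 to 0.966. The transcript of Ccr4 shares at least 75 bases at 95% identity or more with transcripts of 69 other genes, so its value is uncertain. The longest match covers 113 of its 2805 bases, and how far this affects the value was not tested. No such sharing was found for the transcripts searched of the other 8 receptors (the longest that matched the table), although exons annotated over all transcripts overlap other genes for Ccr9, described next, and for Cx3cr1, over 78 bases opposite Gm33858.

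Ccr9, the gut-homing receptor for CCL25, had 6.99 and 7.96 FPKM in controls, 2.75 in Cre-labelled 1 and 6.48 in Cre-labelled 2. Its lower mean came mostly from the low value of Cre-labelled 1. The log2 fold change was -0.68 ± 0.51 (SE, adjusted p = 0.555 in limma), -0.18 without Cre-labelled 1 and -1.17 without Cre-labelled 2. Its annotated exons overlap AC165425.1 over 1932 bases on the opposite strand and Gm17200 over 269 bases on the same strand, and reads of these genes may be mixed with its own.

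Ccr6 and Ccr7 were the T helper receptors with a higher mean in the Cre-labelled libraries, and both overlapped between groups. Ccr6, the receptor for CCL20, had 8.25 and 2.47 FPKM in controls against 7.69 and 10.3 in Cre-labelled 1 and 2 (log2 fold change 0.81 ± 0.59 SE, limma adjusted p = 0.547). The single low value, in control 2, carried this difference: without control 2 it was 0.1. On the longest of the 7 transcripts listed for Ccr6, that low value would be about 2.9 fragments. Ccr7, which leads naive T cells and dendritic cells to CCL19 and CCL21, had 4.48 and 7.83 FPKM in controls against 8.31 and 7.27 in Cre-labelled 1 and 2 (log2 fold change 0.34 ± 0.45 SE, limma adjusted p = 0.745). Without control 1 this difference was -0.01. Dendritic cell markers, which may accompany Ccr7, summed to 54.8 and 1250 FPKM in controls and to 4038 and 4134 in the Cre-labelled libraries. Cd74 alone had 37.4 and 636 FPKM in controls against 2406 and 2251. Of the 11 markers, 9 were higher without overlap (background 23.2%). Zbtb46 (1.43 and 6.2 against 9.55 and 3.47 FPKM) and Siglech (0.65 and 12.2 against 5.51 and 12.2) overlapped between groups. The part of these markers in the values of Ccr7 was not tested.

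Among the receptors shared with monocytes, Cx3cr1 and Ccr2 had different patterns. Cx3cr1 had 15.3 and 12.7 FPKM in controls against 34.2 and 32.2 in the Cre-labelled libraries, with no overlap. Means were 14.01 ± 1.88 and 33.2 ± 1.45 FPKM (SD, n = 2), with a log2 fold change of 1.19 ± 0.33 (SE, adjusted p = 0.199 in limma). Between 31.6 and 67.4 estimated fragments stood behind each value, and the counting intervals of the groups did not meet, with a highest upper bound of 20.8 FPKM in controls and a lowest lower bound of 24.8 in the other group. The pooled fragment ratio was 2.34, with a counting interval of 1.74 to 3.16. Within-library ratios do not depend on scaling. Cx3cr1 stood at 0.901 and 0.519 times the FPKM of Cxcr3 in controls and at 9.15 and 9.57 times in the Cre-labelled libraries. These receptors had the largest higher and the largest lower difference, so a shift of their ratio follows from that choice. Cxcr3 rested on about 3.2 fragments in each Cre-labelled library, so the ratios there are uncertain.

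Ccr2, which binds CCL2 and its relatives, had nearly the same level in 3 libraries, at 31.3 and 31.2 FPKM in controls and 31.2 in Cre-labelled 2. Cre-labelled 1 stood apart at 12.4 FPKM, on 18.5 estimated fragments against 52.3 to 65.5 in the others. The log2 fold change of -0.64 ± 0.49 (SE, adjusted p = 0.563 in limma) was -1.27 without Cre-labelled 2 and 0 without Cre-labelled 1. The pooled fragment ratio was 0.719, with a counting interval of 0.53 to 0.969. That interval excluded equal levels although only Cre-labelled 1 was low, since it leaves out the spread between libraries. The summed macrophage and monocyte markers were higher in both Cre-labelled libraries than in both controls, while Ly6c2, a gene of inflammatory monocytes in that list, overlapped between groups, at 4.05 and 38.1 FPKM in controls against 21.1 and 24.7. Their part in the values of Ccr2 was not tested. Cxcr4 had 9.48 and 4.14 FPKM in controls against 9.9 and 9.88 in Cre-labelled 1 and 2 (log2 fold change 0.57 ± 0.49 SE, limma adjusted p = 0.598). The groups did not overlap, yet control 1 lay just below both Cre-labelled libraries, and without control 2 the difference was 0.06.

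The order of levels also differed between groups. Both controls had Cxcr6, Ccr2, Cxcr3, Cx3cr1 and Ccr4 as their 5 highest receptors, in this order. The counting intervals of Cxcr6 and Ccr2 overlapped there, and those of Cxcr3 and Cx3cr1 did so in both controls. In the Cre-labelled libraries Cx3cr1 came first, followed by Cxcr6 and Ccr2 in the first library and by Ccr2 and Cxcr6 in the second. The counting interval of Cx3cr1 overlapped that of the next receptor in each, Cxcr6 in Cre-labelled 1 and Ccr2 in Cre-labelled 2. Cxcr3 ranked the third in both controls and among the 2 lowest receptors in both other libraries. In the Cre-labelled libraries its counting intervals overlapped those of Ccr4 and Cxcr4, so its rank there is uncertain.

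Scaled to the 18 genes restricted to T cells, an alternative that raises most genes in the Cre-labelled libraries, Cxcr3 was the receptor whose groups overlapped. Its scaled level was 6.28 and 12.2 in controls against 9.39 and 7.31 in the other group, a log2 fold change of -0.08 ± 0.48 (SE, adjusted p = 0.896 in limma). The other 8 receptors were all higher in both Cre-labelled libraries on this scale, and 7 of 9 were called (all but Cxcr3 and Ccr9). So were 8896 of 12896 genes higher (69%) and 40 lower (0.31%), and the median of all genes moved from -0.07 to 2, so these calls are not particular to the receptors. Relative to that median, Cxcr3 lay at -2.07, Cxcr6 at -0.89, Ccr4 at -0.66, Ccr9 at -0.62 and Ccr2 at -0.29, while Ccr7 lay at 0.42, Cxcr4 at 0.71, Ccr6 at 0.87 and Cx3cr1 at 1.5. On this scale the directions of Cxcr6, Ccr4, Ccr9 and Ccr2 were turned. The 18 genes themselves differed unevenly, with log2 fold changes from -3.84 (Ctla4) to -0.78 (Cd3d) and a median of -2.68. Cd4, a sort marker outside the list, had -1.41. The size of the scaling therefore depends on the genes chosen, and scaled values are not levels per T cell.

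**Figure D2:**
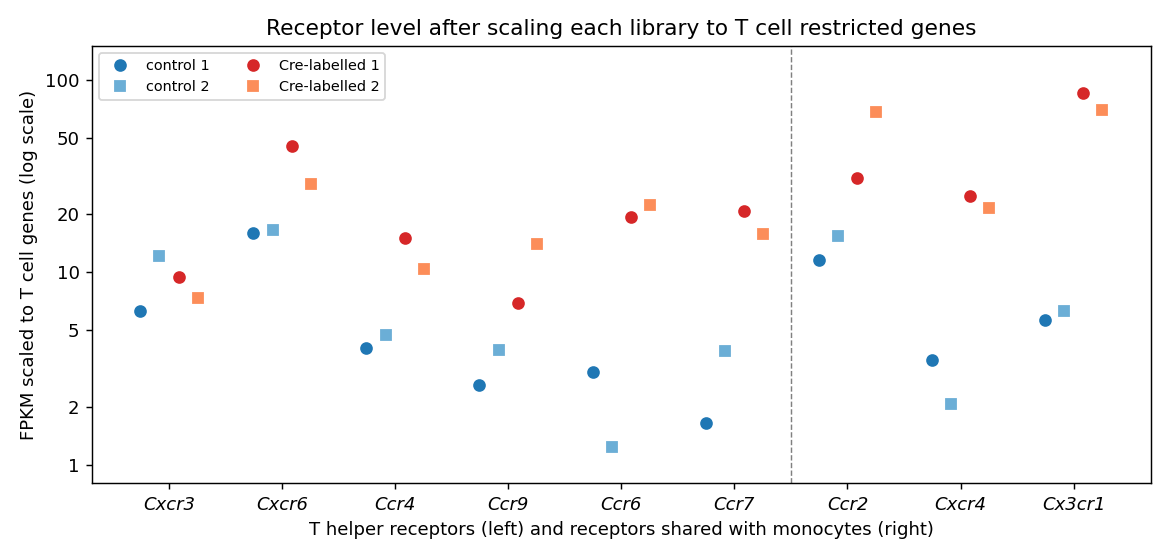
FPKM (log axis) of each receptor after each library was divided by its level of 18 genes restricted to T cells. Cxcr3 overlapped between the groups, and the other 8 receptors were higher in both Cre-labelled libraries than in both controls.

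As a description only, the closest marker genes of each receptor were found by the Euclidean distance of centred log2(FPKM + 1) over the 4 libraries. Values were centred but not scaled, so the distance depends on the size of a difference as well as on its pattern. Cxcr3 was closest to Cd3e (distance 0.54) and Cd3g (0.75), chains of the T cell receptor complex. Cxcr6 was closest to Cd3d (0.55) and Bcl11b (0.65), Ccr4 to Cd3d (0.38) and Eomes (0.41), and Ccr9 and Ccr2 to Themis (0.47 and 0.35). Next after Themis, for both, was Eomes, an NK cell marker (0.66 and 0.88). Eomes was lower in the Cre-labelled libraries, unlike most of its list. Of the 9 NK cell genes, 6 had a higher and 3 a lower mean. Cx3cr1 was closest to Csf3r (0.64), a neutrophil gene, and Cxcr4 and Ccr6 to Mmp8 (0.79 and 0.65), another neutrophil gene. The second closest for these receptors was Jchain, a B cell gene (0.96, 1.05 and 0.82). Jchain rested on about 0.7 and 0 fragments in controls 1 and 2 and on 0.7 and 2.6 in Cre-labelled 1 and 2. Its pattern is therefore uncertain. Ccr7 was closest to the neutrophil genes Retnlg (0.48) and S100a9 (1.02).

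Of 16 genes for ligands of these receptors, 10 were in the table and 7 could be tested, and limma called 0 (0 at an unadjusted p under 0.05, and 0 of 3 with voom weights). Their median log2 fold change was -0.45, with 2 higher and 5 lower means. Cxcl16, the ligand of CXCR6 made by macrophages and dendritic cells, had 2.34 and 6.74 FPKM in controls against 12.2 and 9.5 in the Cre-labelled libraries, the reverse of its receptor (log2 fold change 1.21 ± 0.54 SE, limma adjusted p = 0.355). It shares 552 bases of exon with Zmynd15 on the opposite strand, so its value is uncertain. The ligands of CXCR3 gave no common direction. Cxcl10 had 10.4 and 25.9 FPKM in controls and 11.4 in Cre-labelled 2, and was listed at 0 in Cre-labelled 1 (log2 fold change -2.32 ± 1.21 SE, limma adjusted p = 0.419). Cxcl9 had 0.58 and 17.5 FPKM in controls against 14.7 and 8.25 in Cre-labelled 1 and 2, and Cxcl11 had 13.8 and 3.97 against 4.47 and 11. Ccl17, for CCR4, and Ccl19, for CCR7, were each above 0 in 1 control alone, at 5.59 and 4.33 FPKM, on about 2.0 and 2.1 fragments. Ccl19 shares sequence with 4 other genes (707 bases with Gm2564), Cxcl10 shares 133 bases with Art3, Cxcl9 shares sequence with 3 genes and Ccl25 with Elavl1, and exons of Cxcl11 overlap Gm2673 over 1582 bases on the opposite strand, so these values are uncertain too. Ccl25, for CCR9, had 1.36 and 4.28 FPKM in controls, 5.68 in Cre-labelled 1 and was listed at 0 in Cre-labelled 2.

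Of 13 other chemokine receptors, 12 were in the table and 9 were tested, with a median log2 fold change of 0.61. Limma called 0, with 2 at an unadjusted p under 0.05, both higher (background 9.1% higher and 6.8% lower), and 0 of 7 passed with voom weights (background 2.39% and 0.835%). Ccr3, the eotaxin receptor of eosinophils, was listed at 0 in control 1 and had 0.91 FPKM in control 2, against 26.1 and 19.1 in the Cre-labelled libraries (log2 fold change 4.08 ± 0.52 SE, limma adjusted p = 0.0929 and 0.0717 with voom weights). Its estimated fragments were 0 and 2.0 in controls against 42.7 and 34.8 in the other group, a pooled ratio of 50.1 with a counting interval of 13.4 to 421. Ccr1, a receptor of monocytes and neutrophils, had 0.5 and 0.53 FPKM against 6.32 and 3.78 (log2 fold change 1.97 ± 0.55 SE, limma adjusted p = 0.2), on 1.0 fragment in each control, and its pooled fragment ratio was 9.64 with an interval of 2.24 to 86.9.

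**Figure D3:**
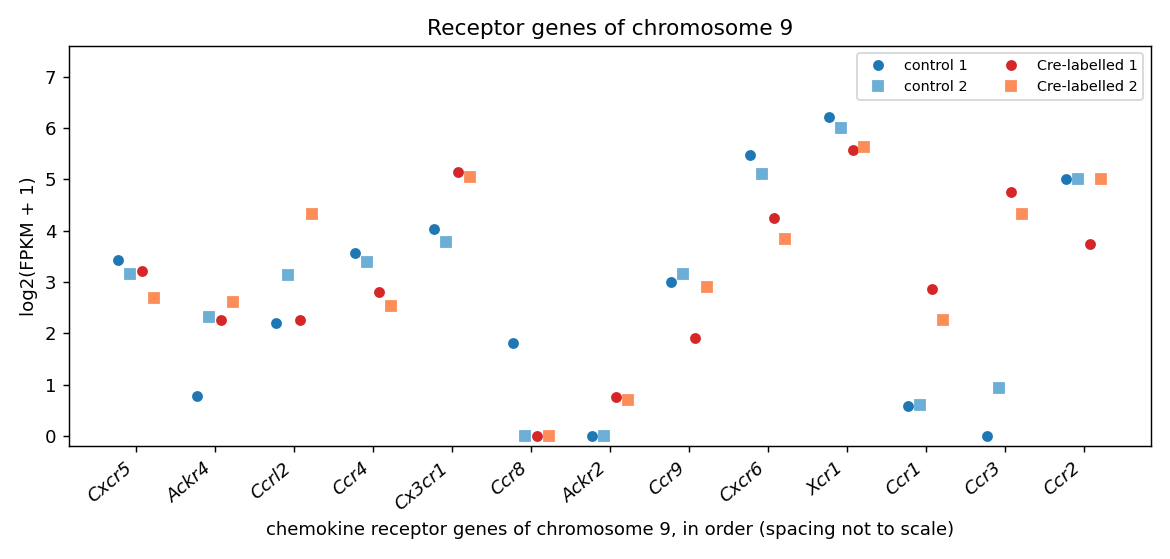
log2(FPKM + 1) of 13 chemokine receptor genes of chromosome 9 in the 4 libraries, in chromosomal order with spacing not to scale. Cxcr6 was lower and Ccr1 and Ccr3 higher in both Cre-labelled libraries than in both controls, although these genes lie in 1 cluster.

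5 of the 9 receptors lie on chromosome 9. On GRCm38, Ccr9 (123767211 to 123783457), Cxcr6 (123806477 to 123811754) and Ccr2 (124101918 to 124109140) share a cluster with Xcr1, Ccr1 and Ccr3. Ccr4 (114490316 to 114505476) and Cx3cr1 (120048683 to 120068296) lie apart from it. Neighbours in the cluster differed in direction. Ccr9 and Cxcr6 had lower values without overlap, the next gene Xcr1 was also lower (73.4 and 62.8 FPKM against 46.7 and 48.5), and Ccr1 and Ccr3 beyond it were higher. Xcr1 shares sequence with transcripts of 38 other genes (longest match 142 bases), so its value is uncertain. Cxcr3 lies on chromosome X (101731535 to 101734147), Cxcr4 on chromosome 1 (128588199 to 128592299), Ccr7 on chromosome 11 (99144199 to 99155077) and Ccr6 on chromosome 17 (8236041 to 8258519).

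Downstream of the receptors, genes of G protein signalling and motility divided evenly. Of 28 tested, 14 had a higher and 14 a lower mean, with a median log2 fold change of 0, and 7 were higher and 10 lower without overlap (background 23.2% and 25.7%). Limma called 0, with 3 higher and 5 lower at an unadjusted p under 0.05 (background 9.1% and 6.8%), and with voom weights 1 of 13 rose and 0 fell (background 2.39% and 0.835%). The gene that passed with voom weights was Rgs2, a GTPase activator that shortens G protein signals (adjusted p = 0.00616 with voom weights and 0.15 in limma on FPKM). It had 9.96 and 35.3 FPKM in controls against 121 and 168 in the Cre-labelled libraries, a log2 fold change of 2.85 ± 0.60 (SE). Rac2, the GTPase of actin assembly in blood cells, had 144 and 127 FPKM in controls against 84.7 and 57.4 in Cre-labelled 1 and 2 (log2 fold change -0.95 ± 0.31 SE, limma adjusted p = 0.248). Rac2 shares sequence with 9 other genes (longest match 124 bases), so its value is uncertain. Rgs14 had 13.98 and 15.9 against 5.92 and 6.84 FPKM (log2 fold change -1.11 ± 0.37 SE, limma adjusted p = 0.252). Gnai2, the main Gi subunit of lymphocytes, overlapped between groups, at 117 and 146 against 159 and 144 FPKM.

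**Figure D4:**
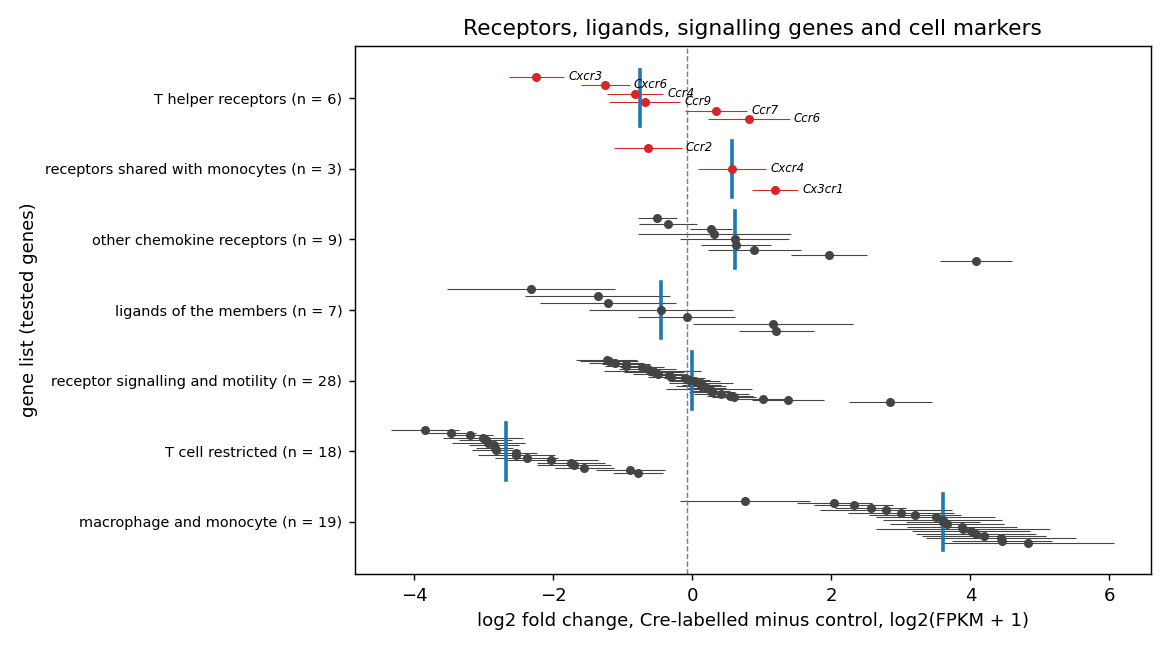
log2 fold changes (Cre-labelled minus control, on log2(FPKM + 1)) with SE bars for the tested genes of each list. Thick lines are list medians and the dashed line is the median of all tested genes, -0.07. The 6 T helper receptors spread from -2.24 to 0.81. The T cell restricted genes ran from -3.84 to -0.78 (median -2.68). The macrophage and monocyte markers ran from 0.76 to 4.83 (median 3.61). Both of these ranges overlapped that of the T helper receptors.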

How the data were processed

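RNA of sorted CD4 T cells was sequenced in 4 libraries, 2 per group, grouped by their titles. The authors deposited 1 table of FPKM values. The submitters' processing notes name HISAT, Bowtie2, RSEM and mm10, but roles, settings and strand use are not given in the sources used here. RSEM assigns shared fragments by estimate, so an exact 0 can be a failed assignment.

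The 12896 genes whose mean FPKM reached 1 entered limma 3.58.1 (R 4.3.3) as log2(FPKM + 1). The model had a group term alone and a variance trend, and two-sided p-values were adjusted by Benjamini-Hochberg with a threshold of 0.05. Exact permutation of 2 against 2 libraries cannot go below 0.33, so none is given. For 10348 genes with 1 transcript over 800 bases, FPKM times length was compared with multiples of the worth of 1 fragment. With the worth used, 66.5% to 68.6% of low values lay within 0.1 of a whole fragment. That worth was itself chosen to make this share high, so the share is not an independent check and the depths are estimates. These fragments gave depth, 95% exact Poisson intervals and voom weights (mean of at least 3 fragments). Lengths are from GENCODE M21, positions from GRCm38.p6, which carries mm10 coordinates. The limma procedure was also run on simulated data with a fixed spread and without the cell marker differences of these libraries. That run therefore does not check the p-values given here.

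The receptors and lists were chosen with earlier results of these data known. All 9 receptors are named. Of each pathway list, called genes or else the 3 with the smallest p were named, with ligands of mean FPKM of at least 1. Xcr1 falls under this rule, and Gnai2 was named outside it, after its values were seen. 1 further chemokine receptor was left out of the lists and is not analysed here. Same-numbered libraries did not deviate together (correlation -0.002) and were not paired.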

Additional observations from a re-analysis of the deposited data

How the results depend on the processing

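Over 14 alternatives planned and 1 added after the data were seen (voom weights), the sign of the log2 fold change was negative for Cxcr3 and positive for Cx3cr1, Cxcr4 and Ccr6 in every one run, but Cxcr3 came to -0.08 with overlapping groups when scaled to T cell genes, and Cxcr4 and Ccr6 came to 0.06 and 0.1 without control 2. Ccr6 and the other genes with several transcripts had no value with voom weights. No receptor was called except with scaling to T cell genes, which called 7 higher and 0 lower, with 35 pathway genes and 8896 of all genes higher and 40 lower. That scaling turned the log2 fold changes of Ccr4 (1.33), Cxcr6 (1.1), Ccr9 (1.37) and Ccr2 (1.71), since it divides the Cre-labelled libraries by a smaller factor. Without control 1, Ccr7 turned to -0.01, and leaving out each library moved it between -0.01 and 0.68. Leaving out 1 library moved Cxcr3 between -2.48 and -1.99, Cxcr6 between -1.45 and -1.04, and Cx3cr1 between 1.06 and 1.32.

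Over all genes, 2 were called higher and 5 lower. A pseudocount of 0.1, no filter, no trend and the replicate block each gave 0 higher and 0 lower (1813, 2190, 1996 and 1888 at an unadjusted p under 0.05). A pseudocount of 5 and a mean FPKM of at least 5 gave 0 higher and 4 lower each. Leaving out any 1 library gave 0 higher and 0 lower, the lowest and highest value alike (1234 to 2042 at an unadjusted p under 0.05). Voom weights gave 172 higher and 60 lower, with 1 pathway gene higher. The cause was not tested. The replicate block called 0 receptors, as did the fit without it. Depth limits the low values of Cxcr3 (about 3.2 fragments), Ccr6 (about 2.9) and Cxcr4 (about 5.0 in control 2).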
